A study of Danio rerio with 4 samples.

Results

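The microRNA processing and Argonaute genes described here are drosha, dgcr8, xpo5, dicer1, ago1, ago2 and tnrc6a of the zebrafish, Danio rerio. They were chosen by gene symbol, and 6 of the 7 have a RefSeq row in the deposited expression table, which holds 32575 transcripts, 15936 of them with RefSeq identifiers. The remaining gene, xpo5, had no row. The long-read tables held 11 transcript models naming one of these genes for untreated embryos and 8 for α-amanitin embryos.

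The study profiled whole embryos from natural spawning of AB, TAB14 or TAB5 wild-type adults around zygotic genome activation (ZGA), when the embryo's own genome starts to be transcribed. The 2 long-read groups, sequenced on PacBio from polyadenylated RNA, are pools of 15 embryos. One was untreated, and the other was injected at the earliest cleavage stages with α-amanitin (0.2 nmol), which inhibits RNA polymerase. Both carry a label of 6 hours post fertilization (hpf), but the source name of the α-amanitin pool gives the 256-cell stage, before ZGA. The short-read groups are untreated pools of about 20 embryos at 2.5 hpf and 5.25 hpf, whose own files were not analysed here. Each group has 1 library, so the differences below have no replicate check and no p-value.

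MicroRNAs begin as hairpins in longer primary transcripts. In the nucleus Drosha, an RNase III enzyme, cuts the hairpin out together with its RNA-binding partner Dgcr8, and Exportin-5, encoded by xpo5, carries it to the cytoplasm. Dicer trims it to a short duplex, of which 1 strand is loaded into an Argonaute protein. The Argonaute recruits a TNRC6 (GW182) protein, which brings in deadenylation and decapping enzymes to silence the bound mRNA. In zebrafish the miR-430 family, transcribed at ZGA, uses this machinery to clear many maternal mRNAs.

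The expression table has 2 columns, control and α-amanitin, in log2(TPM + 1), where TPM is transcript abundance scaled so that a column sums to 1000000. The columns were assigned by name to the untreated and α-amanitin groups, and "in control" and "in α-amanitin" below refer to them. Which reads were quantified is not stated. If they are the short-read stages, the ratios compare developmental stages instead of treatments. As a check on the column names, 15 of 15 zygotic marker genes were at least 2-fold higher in control (median log2 ratio 6.48). Of 11 maternal markers, 10 were at least 2-fold lower (median −2.92). Over all transcripts 21.8% were higher and 29.3% lower. The long-read tables did not separate the libraries this way: 3 of the 15 zygotic markers had a model in untreated embryos and 4 in α-amanitin embryos. The markers were chosen with earlier results of these data known. The check cannot tell treatments from developmental stages, since both would give these directions. One of the 10 lower maternal markers, pou5f3, was listed at 2.88e-10 TPM in control, although 5 models named it in untreated embryos. A further limit is that 16639 rows carry PacBio identifiers that were not joined to genes, so a RefSeq row can hold only part of its gene's signal. TPM keeps no depth, and the depth of the table is unknown. In whole-embryo pools, fewer cells of a type and less RNA per cell cannot be told apart.

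Of the 5 protein-coding genes with a row, drosha, dgcr8 and ago1 were at least 2-fold lower in control than in α-amanitin, while dicer1 and ago2 stayed within 2-fold. The only row at least 2-fold higher in control was that of tnrc6a, which RefSeq types as a transcribed pseudogene. At the same threshold, 29.3% of all transcripts and 24.6% of RefSeq transcripts were lower, and 21.8% and 22.6% were higher. The threshold applies to the log2 ratio of (control TPM + 1) to (α-amanitin TPM + 1). The 6 rows had a median log2 ratio of −1.69, and the 5 coding rows had a median of −2.44, against 0.00 over all transcripts and over all RefSeq transcripts. The nearer background is the part of the table whose larger value reached 1 TPM, as it did for all 6 rows. Its median was −0.35, with 36.7% at least 2-fold lower and 27.3% higher.

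**Figure D1:**
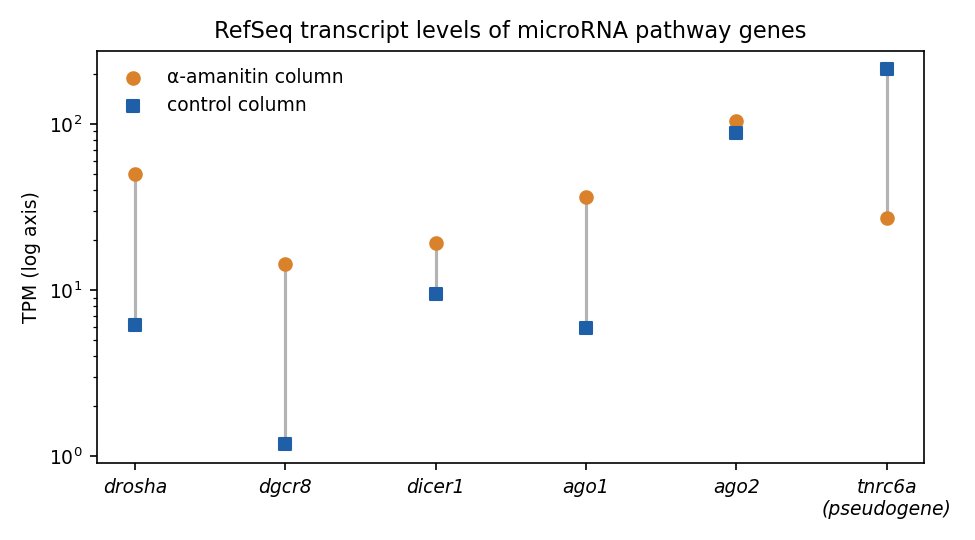
Level of each RefSeq row in TPM on a log axis, 1 value per column, with circles for the α-amanitin column and squares for the control column, joined by a line. The squares of drosha, dgcr8 and ago1 lie well below their circles, those of ago2 nearly meet at 87.6 and 104 TPM, and tnrc6a runs the opposite way, from 27 to 212 TPM.

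In nuclear processing, drosha (NM_001110472) was at 6.14 TPM in control and 49.9 TPM in α-amanitin, a log2 ratio of −2.83 and 8.13-fold less in TPM. The Cuffcompare tables name this accession rnasen, an older symbol that RefSeq lists as a synonym of drosha. Its partner dgcr8 (NM_001122749) was at 1.18 TPM against 14.3 TPM, a log2 ratio of −2.81 and 12.1-fold less in TPM. Both subunits of the nuclear complex thus had lower values in control. On the TPM scale, which is per length, the RefSeq row of drosha was 5.2 times that of dgcr8 in control and 3.49 times in α-amanitin. Both genes also have long-read models, so these compare RefSeq rows, which can be partial, and not the whole genes. In the control column dgcr8 was the lowest of the 6 rows, at percentile 38.4 of RefSeq transcripts, and in α-amanitin it stood at percentile 70.2.

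The export step could not be followed in the expression values. RefSeq lists xpo5 with 0 curated transcripts (NM or NR) and 2 predicted ones, and no model in either library named it.

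In the cytoplasmic step, dicer1 (NM_001161453) was at 9.45 TPM in control and 19.2 TPM in α-amanitin. The log2 ratio was −0.95, just inside the 2-fold threshold, although the TPM values themselves differed 2.03-fold. Its position among RefSeq transcripts was similar in the 2 columns, at percentiles 67.3 and 74.2.

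Among the Argonautes, ago1 (NM_001317223) was at 5.89 TPM in control and 36.3 TPM in α-amanitin, a log2 ratio of −2.44. By contrast, ago2 (NM_001302222), whose mammalian counterpart can itself cut a perfectly paired target, was at 87.6 TPM against 104 TPM, a log2 ratio of −0.25. The RefSeq row of ago2 was 14.9 times that of ago1 in TPM in control and 2.87 times in α-amanitin. Among the coding rows of this gene set it was the highest in both columns, near percentile 95 of RefSeq transcripts in α-amanitin and at percentile 94.8 in control. The row of ago4, outside the set, was above that of ago2 in α-amanitin, at 144 TPM, and below it in control, at 68.7 TPM. With the columns scaled so that transcripts of at least 1 TPM in both had a median ratio of 0, a shift of 0.52 on the log2 scale, ago2 turned to 0.27, so its direction is not settled. Under the same scaling drosha, dgcr8 and ago1 had log2 ratios of −2.38, −2.51 and −1.98, where 23.1% of all transcripts were at least 2-fold lower and 28.0% higher.

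The row of tnrc6a (NR_023338) was at 212 TPM in control and 27 TPM in α-amanitin, a log2 ratio of 2.93. RefSeq, in its GRCz12tu annotation, types this gene as a transcribed pseudogene, and the reference transcript in the Cuffcompare table is 435 bases long. The value therefore describes a short noncoding transcript that carries the symbol, and it gives no level for a TNRC6 protein gene. The TNRC6 genes tnrc6c1 and tnrc6c2 have predicted RefSeq transcripts only, 12 and 4 of them, and neither had a row.

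In order of RefSeq row level in TPM, the control column ran tnrc6a, ago2, dicer1, drosha, ago1 and dgcr8. There drosha and ago1 were 1.04-fold apart, and ago2 was 9.27 times dicer1, the next coding gene of the set. The α-amanitin column ran ago2, drosha, ago1, tnrc6a, dicer1 and dgcr8. Below ago2, which was 2.09 times drosha, each step in that column was between 1.34-fold and 1.41-fold. Without replicates it is not known which of these steps exceed the spread between samples.

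**Figure D2:**
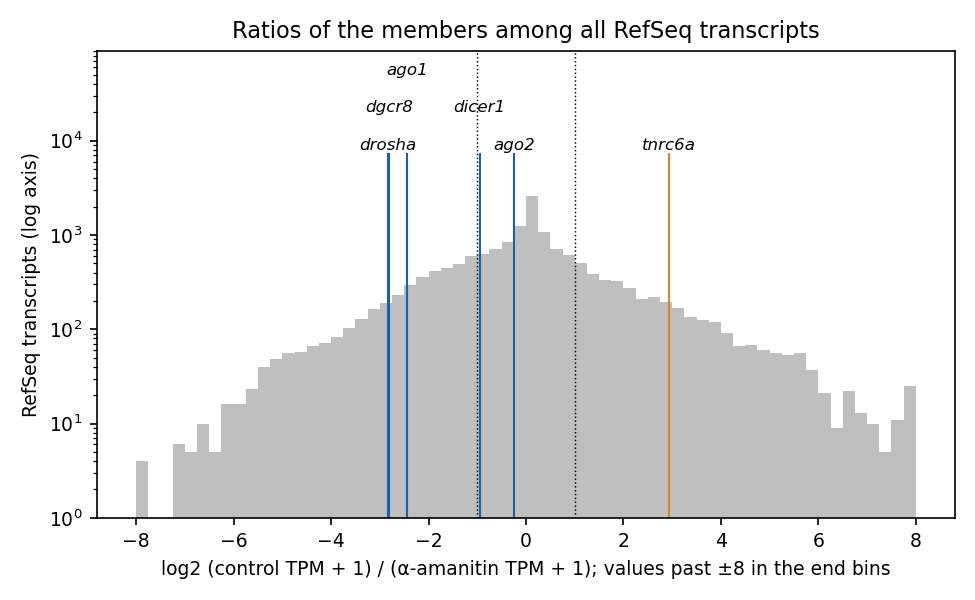
Histogram of the log2 ratio of the control to the α-amanitin column over 15936 RefSeq transcripts, with a log count axis, dotted lines at 2-fold and vertical lines for the 6 rows. The lines of drosha, dgcr8 and ago1 lie in the left flank between −2.83 and −2.44, dicer1 and ago2 lie between the dotted lines, and tnrc6a lies in the right flank at 2.93.

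Whether a RefSeq row has a long-read model goes with its ratio over the whole table. Of 7695 RefSeq transcripts named by a model in at least 1 library, 40.0% were at least 2-fold lower in control, against 10.2% of the 8241 with no model, and 19.2% and 25.7% were at least 2-fold higher. Their median levels also differed, at 17.2 and 0.302 TPM in α-amanitin. With the pseudocount of 1, a row below 1 TPM in α-amanitin cannot be called 2-fold lower. The median of the rows with no model lies below that level, so the lower shares of the 2 sets are not on an equal footing. Among all rows whose larger value reached 1 TPM, 36.7% were at least 2-fold lower and 27.3% higher. Models named drosha, dgcr8, dicer1, ago2 and tnrc6a, the last by a model beyond the gene end alone. Whether any of these genes has PacBio rows in the expression table is not known, since those rows were not joined to genes. No model named ago1 in either library, and its ratio of −2.44 was close to those of drosha and dgcr8. The part of unjoined PacBio rows in the ratios was not tested.

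Most of the models were contained pieces of their reference transcripts. Of the 19 models naming these genes, 13 were contained within the reference transcript (class c), 2 matched all of its introns (class =), 1 shared a splice junction but differed in structure (class j), 2 lay just beyond a gene end (class p) and 1 overlapped exons on the opposite strand (class x). Class c made up 7 of the 11 models in untreated embryos and 6 of the 8 in α-amanitin embryos. Among all models naming a reference gene it made up 20.1% and 18.4%, respectively, shares not matched for reference length. Several of the class c models came from the same gene: dgcr8 had 3 in each library, and drosha had 3 in untreated and 1 in α-amanitin embryos. A collapsed table lists each structure once, so the number of models is not a number of molecules.

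**Figure D3:**
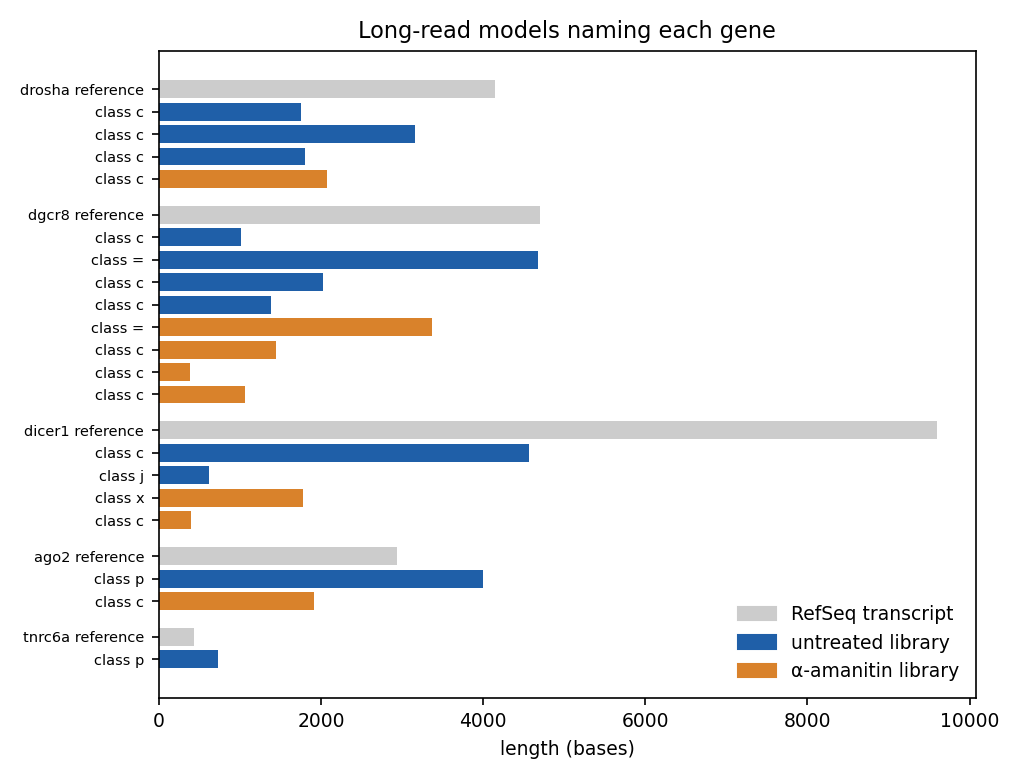
Length in bases of every long-read model naming drosha, dgcr8, dicer1, ago2 or tnrc6a (blue for the untreated library, orange for the α-amanitin library), under the grey bar of the reference transcript, with the class code of each model. One dgcr8 model, of 4677 bases in untreated embryos, nearly equals its reference of 4702 bases, while dicer1 models end far short of 9596 bases.

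The model nearest to a whole transcript was one of dgcr8. In untreated embryos a class = model of 4677 bases made up 99.5% of the length of the 4702-base reference, beside contained models of 1014, 2022 and 1379 bases at the same locus. The α-amanitin library had a class = model of 3371 bases, 71.7% of the reference length, and contained models of 1452, 386 and 1061 bases, the last at a locus of its own. So both libraries held a model with the intron chain of dgcr8, shorter in α-amanitin embryos.

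All models of drosha were contained in the 4141-base reference. In untreated embryos they were 1754, 3155 and 1808 bases long, at 1 locus, and in α-amanitin embryos the single model was 2079 bases long. The longest reached 76.2% of the reference length.

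The dicer1 reference, at 9596 bases, is longer than any model in the tables, where the longest had 5772 bases in untreated embryos and 6996 bases in α-amanitin embryos. A contained model of 4566 bases in untreated embryos covered 47.6% of that length, and a class j model at the same locus had 625 bases. In α-amanitin embryos the contained model had 400 bases. The other α-amanitin model that named dicer1 had 1774 bases and was on the opposite strand (class x), so it is not a dicer1 mRNA.

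For ago2 the libraries differed in kind. The α-amanitin library had a contained model of 1915 bases, 65.1% of the 2941-base reference. The untreated library had only a class p model of 4005 bases, which lies beside the reference transcript without matching its exons. The single model named for tnrc6a, of 731 bases in untreated embryos, was also of class p. On models that overlap exons on the same strand (classes =, j and c), the genes found were drosha, dgcr8 and dicer1 in untreated embryos and these 3 plus ago2 in α-amanitin embryos. With models of any class, 5 of the 7 genes were found in untreated embryos and 4 in α-amanitin embryos, where 41.0% and 41.7% of all RefSeq rows had such a model. The 7 include xpo5, which has no row and so is outside that background. Nor was the background matched for level. The median was 2.86 TPM in control and 2.11 TPM in α-amanitin over all RefSeq rows, against 7.8 and 31.6 TPM over the 6 rows.

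The other Argonaute genes gave lower values in control as well. The row of ago3a was at 5.14 against 24.8 TPM (log2 ratio −2.07), that of ago3b at 12.7 against 55.4 TPM (−2.04) and that of ago4 at 68.7 against 144 TPM (−1.06). Of the 5 Argonautes of the microRNA clade, ago2 was the only one with a log2 ratio inside 2-fold, and under scaling ago4 was inside it too. For comparison, 24.6% of RefSeq transcripts were at least 2-fold lower, as were 36.7% of all rows whose larger value reached 1 TPM. Summed, the RefSeq rows of these 5 genes came to 180 TPM in control and 365 TPM in α-amanitin. Of that sum ago2 made up 48.7% in control and 28.5% in α-amanitin, while ago4 made up 38.1% and 39.6%, ago3b 7.05% and 15.2%, ago1 3.27% and 9.94%, and ago3a 2.85% and 6.79%. Long-read models named ago2, ago3b and ago4 but not ago1 or ago3a. The shares compare RefSeq rows, which can be partial, and not the whole genes. In the GRCz12tu annotation ago1 and ago3a are neighbours on chromosome 16 with 0 annotated genes between them, and ago2, ago3b and ago4 all lie on chromosome 19. Those on chromosome 19 are not neighbours, with 702 annotated genes between ago2 and ago3b and 141 between ago2 and ago4. The Piwi genes, whose proteins bind piRNAs in the germ line, stayed within 2-fold: piwil1 at 22.1 against 35.5 TPM (−0.66) and piwil2 at 1.53 against 1.13 TPM (0.25). The list of Argonaute, Piwi and TNRC6 genes named 8 symbols, of which 3, all TNRC6 genes, had no row.

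Among the partners in processing and loading, 2 of 7 rows were at least 2-fold higher in control, 1 was at least 2-fold lower and 4 were within 2-fold (median log2 ratio 0.21), shares near the 22.6% higher and 24.6% lower among RefSeq transcripts. The RNA helicases ddx5 and ddx17, cofactors of Drosha, were higher. The ddx5 transcript NM_212612 was at 91.3 against 5.6 TPM (3.80), while the second ddx5 transcript was at or near 0 in both columns. That second row is one of the 4 counted within 2-fold and enters the median, although its ratio of 0.00 rests on the pseudocount. The row of ddx17 was at 97.6 against 27.9 TPM (1.77). Of the double-stranded RNA-binding partners of Dicer, tarbp2 was at 91.5 against 116 TPM (−0.34) and prkra at 17.6 against 15.2 TPM (0.21). The row of srrt, which links capped transcripts to processing, was at 160 against 128 TPM (0.32). The row of ipo8, an import factor that binds Argonaute in human cells, was at 7.36 against 43.1 TPM (−2.40).

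Regulators of microRNA precursors gave 3 of 5 rows at least 2-fold higher in control and 0 lower (median 1.30), with 5 of 5 higher under scaling. Among all transcripts 21.8% were higher, and 28.0% under scaling. In the other lists scaling gave 2 of 7 rows higher and 1 lower for the processing and loading partners, and 0 of 5 and 2 for the other Argonaute and Piwi genes. It gave 4 of 8 higher and 1 lower for the silencing effectors, and 4 of 6 and 2 for the miR-430 targets. The row of lin28a, named lin28ab in RefSeq, was at 133 against 7.81 TPM (3.93), and its protein binds let-7 precursors. Long-read models named this row 0 times in untreated embryos and 2 times in α-amanitin embryos. The row of trim71, a ubiquitin ligase and mRNA repressor, was at 68.2 against 27.1 TPM (1.30), and that of the RNA editor adarb1a at 25.4 against 5.26 TPM (2.08). The row of lin28b was at 33.5 against 16.5 TPM (0.98) and that of the editor adar at 43.5 against 24.7 TPM (0.79). The terminal uridylyltransferases and dis3l2 of this list had no row.

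The silencing effectors downstream of TNRC6 split in both directions, with 3 of 8 rows at least 2-fold higher, 2 lower and 3 within 2-fold (median 0.67). Among RefSeq transcripts 22.6% were higher and 24.6% lower, so the lower share is near the background. The calls of cnot8, dcp2 and cnot1 rest on ratios close to the threshold. The genes pan2 and ddx6 of this list had no row. The deadenylase paralogs cnot7 and cnot8 were past 2-fold in opposite directions, cnot7 at 3.07 against 32.3 TPM (−3.03) and cnot8 at 36.9 against 17.8 TPM (1.01). Their scaffold cnot1 was at 45.2 against 22.2 TPM (0.99). The row of pan3, a subunit of another deadenylase, was at 20.8 against 45.3 TPM (−1.09), that of the decapping enzyme dcp2 at 34 against 16 TPM (1.04) and that of the exonuclease xrn1 at 51.5 against 40.5 TPM (0.34). The poly(A)-binding protein gene pabpc1a was at 23.8 against 4.26 TPM (2.24) and pabpc1b at 3.29 against 2.61 TPM (0.25).

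**Figure D4:**
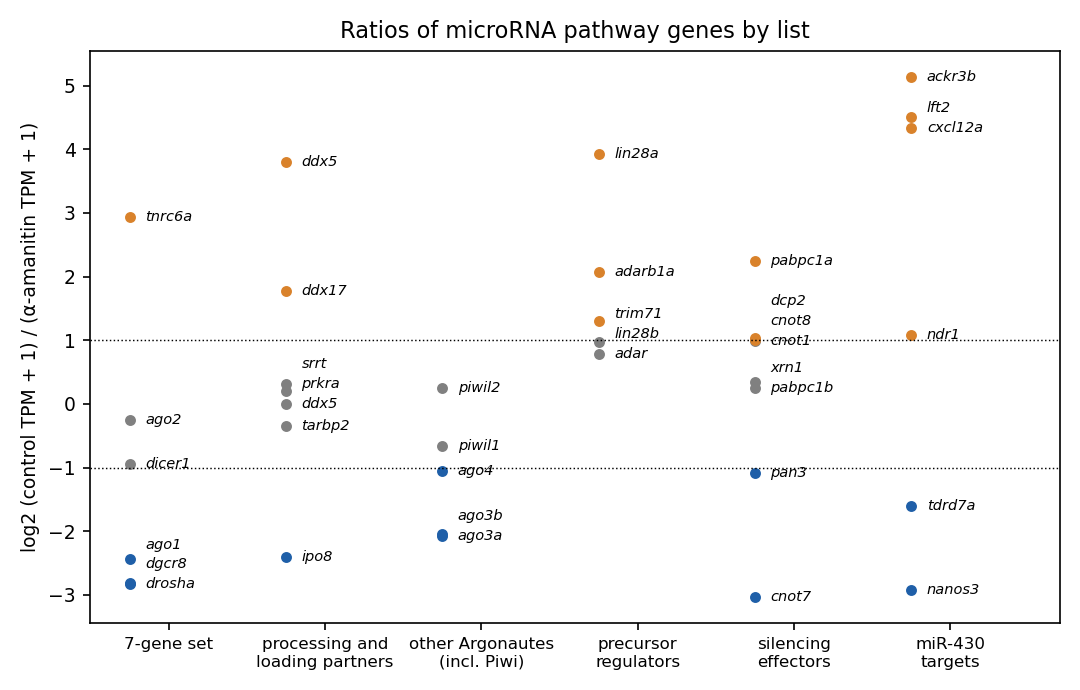
Log2 ratio of the control to the α-amanitin column for each RefSeq row of the microRNA machinery and of 5 related lists, with dotted lines at 2-fold (orange, at least 2-fold higher in control; blue, at least 2-fold lower; grey, within). Blue points include drosha, dgcr8, ago1, ago3a, ago3b and ago4. Orange points include 3 of 5 precursor regulators, up to lin28a at 3.93, and 4 of 6 miR-430 targets, up to ackr3b at 5.14. Among RefSeq transcripts 22.6% were higher and 24.6% lower.

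Genes known as miR-430 targets in zebrafish were also split, with 4 of 6 rows at least 2-fold higher and 2 lower (median 2.71). Among RefSeq transcripts 22.6% were higher and 24.6% lower. The germ-cell genes nanos3, at 18.9 against 150 TPM (−2.93), and tdrd7a, at 11 against 35.4 TPM (−1.60), were at least 2-fold lower in control. The signalling genes lft2 (34.3 against 0.565 TPM, 4.50), cxcl12a (24.2 against 0.245 TPM, 4.34), ackr3b (36.1 against 0.0507 TPM, 5.14) and ndr1 (14.2 against 6.16 TPM, 1.08) were at least 2-fold higher. The last of these is also one of the zygotic markers above.

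The RefSeq rows most like each gene in both columns were found by the distance between their 2 log2(TPM + 1) values, over 15449 named rows. They were ezrb for drosha (distance 0.003), fgf14 for dgcr8 (0.042), mospd2 for dicer1 (0.062), alkbh1 for ago1 (0.020), prrg4 for ago2 (0.020) and hnrnpaba for tnrc6a (0.108). With only 2 values per row, such likeness is common: 41 rows lay within 0.25 of drosha and 67 within 0.25 of dicer1, but 4 within 0.25 of tnrc6a.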

How the data were processed

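Per the series description, the authors assembled long reads into transcripts with IsoSeq, mapped them to GRCz10 with GMAP and compared them with a reference transcriptome with Cuffcompare. The submitters' processing notes also name kallisto and bcl2fastq 1.8.3, with no role. The deposited Cuffcompare tables give model and reference lengths in bases; their FPKM values were 0 for every model and were not used. The deposited expression values are on a log2 scale, log2(TPM + 1), a unit read from the values. No per-sample column was left unused (0 columns).

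RefSeq rows were matched to genes by the Cuffcompare symbol or by accession in a RefSeq gene table of GRCz12tu, used for names, types and neighbours only. Ratios were taken on the log2(TPM + 1) scale with a pseudocount of 1 and a threshold of 2-fold; this understates low transcripts. No test was run, since each group has 1 library. All 7 genes are named, as is any gene of the related lists, and for each gene the nearest other RefSeq row. The genes and lists were chosen with earlier results of these data known. The alternatives were a pseudocount of 0.1, scaling of the control TPM to a median ratio of 0, a threshold of 1.5-fold, a minimum of 1 TPM, summed transcripts, classes = and j, models of at least 500 bases and the longest model per locus. The arithmetic of the ratio was checked on simulated columns with known folds and no added noise. That check bears on the code only, not on the reported values. Python 3.11.15, numpy 2.4.6, pandas 2.3.3, scipy 1.17.1 and matplotlib 3.10.9 were used.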

Additional observations from a re-analysis of the deposited data

How the results depend on the processing

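Of 43 values under alternatives, 23 stayed as reported (single ratios to 2 decimals, counts within 1.5 times), 19 moved and 1 reversed; causes were not tested unless given. The ratio of ago2 reversed to 0.27 under scaling. Scaling gave log2 ratios of −2.38 for drosha, −2.51 for dgcr8, −0.47 for dicer1, −1.98 for ago1 and 3.45 for tnrc6a (median −1.23), and over all transcripts it moved the share at least 2-fold lower to 23.1% and higher to 28.0%. A pseudocount of 0.1 gave −3.00, −3.49, −1.01, −2.60 and 2.97 in the same order (median −1.81), and so brought dicer1 past 2-fold. Leaving out the tnrc6a row, an alternative chosen after seeing the data, gave a median of −2.44 and left 0 rows at least 2-fold higher. With classes = and j alone, which by construction drops contained models, 2 genes had 2 models in the untreated library and 1 gene had 1 model in the α-amanitin library. The longest model per locus left 5 models in the untreated library. Of the 23, several could not move and say nothing about stability. These are the 6 ratios with transcripts of a symbol summed, since each gene has 1 RefSeq row, and the 2 counts at a minimum of 1 TPM, which every row passes. The count of lower rows without tnrc6a is another. The number of genes with a model in each library under the longest model per locus was also fixed, since every locus keeps a model. No paired analysis was possible because each group has 1 library. With no read numbers in any file, counting error cannot be given.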

Other observations

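RefSeq rows of microRNAs, whose hairpins are the substrates of Drosha and Dicer, were often listed at 0. Of 202 RefSeq rows with a microRNA symbol, 103 were listed at 0 in both columns, 84 in the α-amanitin column alone and 7 in the control column alone. Listed at 0 in both columns were 739 of all 15936 RefSeq rows and 219 of the 489 noncoding (NR) rows. In the control column alone these numbers were 513 and 18. The 84 are 41.6% of the microRNA rows. Listed at 0 in the α-amanitin column alone were 11.6% of all RefSeq rows and 30.5% of the NR rows. The NR rows include microRNA rows, so this background is partly made of the same rows. A listed 0 can be a failed estimate, and on hairpins this short a few reads give a large TPM, so no fold is given against 0. The 2 rows of the miR-430 family, mir430a-1 and mir430a-11, were at 1.33 and 5.55 TPM in the control column and listed at 0 in the α-amanitin column. Of the 8 rows with a value in both columns, 7 were above in control and 1 in α-amanitin. The same tally over other rows was not taken. With the pseudocount and with rows listed at 0 included, 88 of the 202 microRNA rows (43.6%) were at least 2-fold higher in control. The same share was 22.6% of all RefSeq rows and 36% of NR rows, which again include microRNA rows. At least 2-fold lower were 7 of the 202, against 24.6% of all RefSeq rows. Among the 8 rows with a value in both columns, 4 were at least 2-fold higher, and no background of such rows was taken. These 4 were mir733 at 32 against 1.11 TPM, mir124-5 at 65.3 against 7.49 TPM, mir92a-2 at 53.3 against 9.96 TPM and mir2186 at 89.2 against 42.7 TPM. In the long-read tables the untreated library had a model naming mir430a-11 on the opposite strand (class x). It also had models naming mir128-2, mir2193 and mir29b-1, and the α-amanitin library had models naming mir128-2, mir2193 and mir26a-1. All of these were of class x or had another exonic overlap (class o). They were 559 to 2929 bases long, against references of 78 to 123 bases. A value at a microRNA row can thus come from a longer overlapping transcript and need not be a precursor level. These examples were chosen after their values were seen.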
